A study of Bos taurus with 2 samples.

Results

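Genes of the mitotic spindle, the kinetochore and the anaphase-promoting complex were examined in pools of bovine embryos made by in vitro fertilization. The members were chosen by symbol from the authors' gene tables. They are the centromere protein genes (CENP), the kinesin genes (KIF), the Aurora and Polo-like kinases, the BUB checkpoint genes, the ANAPC subunits, the SMC genes, the CDCA genes, and 14 further genes named singly, such as CDC20, NDC80, BIRC5 and TOP2A. The rule took 93 of 21209 gene symbols, and 71 of these averaged 1 FPKM or more over the pools. FPKM counts fragments per kilobase of transcript and per unit of sequencing, which scales levels for transcript length. The RNA was amplified before sequencing, and the part of this step in levels compared between genes was not tested. The rule goes by symbol and not by role, so it also takes kinesins of transport and of cilia, the stress-responsive kinase genes PLK2 and PLK3, and CENPJ, which acts at the centriole.

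One pool of CDKN1C-siRNA-injected embryos was compared with 1 pool of Sham-injected embryos. The first received siRNA against CDKN1C, the inhibitor of cyclin-dependent kinases also known as p57kip2, as zygotes. The second were punctured by the needle and received no siRNA. All were IVF embryos, and the RNA of each pool was amplified before sequencing. The study gives a siRNA dose and a day of collection for its injection experiments in general, not for the sequenced pools, and the number of embryos in each of these pools is not given in the sources used here. Each group is a single library, so no difference below has a replicate check, no test was run, and the read depth is not known.

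When a cell divides, kinetochores assemble on the centromeric chromatin of each chromosome and bind the microtubules of the spindle, while motor proteins of the kinesin family build the spindle and move chromosomes along it. Unattached kinetochores feed the spindle checkpoint, which holds back the anaphase-promoting complex (APC/C), a ubiquitin ligase. Once released, the APC/C marks securin and cyclin B for destruction, separase then cuts the cohesin rings that hold sister chromatids, and the chromosomal passenger complex moves to the midzone for cytokinesis. Cells of the cleaving embryo and blastocyst pass through this sequence repeatedly.

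The targeted gene, CDKN1C, was 14.6 FPKM in injected embryos and 49.5 FPKM in sham embryos. The defining markers of the blastocyst were present in both. All 7 trophectoderm markers examined and all 3 of the inner cell mass reached 1 FPKM in at least 1 pool, with summed levels of 7530 and 75.7 FPKM in the injected pool against 17521 and 199.9 FPKM in the sham pool. Most of the trophectoderm sum came from the keratin genes KRT8 and KRT18, at 1611 and 5389 FPKM in injected embryos against 5760 and 11245 FPKM in sham embryos, whereas IFNT2, at 134.6 FPKM in injected against 31.1 FPKM in sham embryos, and TFAP2A, at 3.37 against 1.69 FPKM, were higher in the injected pool. Of 3 hypoblast markers, GATA6 was present and SOX17 was listed at 0 in both pools. The 6 fibroblast markers summed to 10.1 FPKM in injected embryos and 3.07 FPKM in sham embryos. The 3 that reached 1 FPKM were LUM, at 4.77 FPKM in injected against 0.138 FPKM in sham embryos, PDGFRA, at 2.58 against 1.82 FPKM, and COL1A2, at 1.86 against 1.04 FPKM. COL1A1 was listed at 0 in both pools, and each of the other fibroblast markers was higher in the injected pool. Of 6 markers of cumulus and granulosa cells 2 reached 1 FPKM, and the sums were 8.04 FPKM in injected against 7.85 FPKM in sham embryos. Of 5 oocyte markers 1 did, ZP3, and the sums were 10.00 FPKM in injected against 24.6 FPKM in sham embryos. The part of these cells in the results below was not tested.

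More of the members were higher than lower in the injected pool, and 30 of 71 differed by at least 1.5-fold. The difference of a gene was taken as log2 of (injected FPKM + 1) over (sham FPKM + 1), a scale that understates the change of genes with low values. Of the 71 members averaging 1 FPKM or more, 46 were higher and 25 lower after siRNA injection. That is 64.8% higher, beside 41.7% of the 7984 genes at that level. The median difference of the members was 0.26, beside -0.17 over all of these genes. At 2-fold on this scale, 3 members were higher, which is 4.23% beside 4.92% of all genes, and 5 were lower, which is 7.04% beside 15.7% of all genes. At 1.5-fold, 18 members were higher, 25.4% beside 14.9% of all genes, and 12 were lower, 16.9% beside 30.5%. In embryo pools, a change in the share of dividing cells and a change in RNA per cell cannot be told apart.

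The scaling between the pools sets how these calls split. All FPKM summed to 1051060 in the injected pool and 1384060 in the sham pool. With the median of all genes set to 0, 6 of 71 members were 2-fold higher and 3 were 2-fold lower, beside 616 and 882 of 7984 genes. The same total in each pool brought 73 members and 8262 genes to a mean of 1 FPKM or more. Of these members 14 were higher and 1 was lower, beside 1044 and 625 of the genes. Among all genes the higher share of the 2-fold calls was 23.8% as deposited, 41.1% with the median set to 0 and 62.6% with the same total, which moved the median of all genes to 0.17. The members' median stood above that of all genes in each case, at 0.43 with the median set to 0 and 0.58 with the same total.

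**Figure D1:**
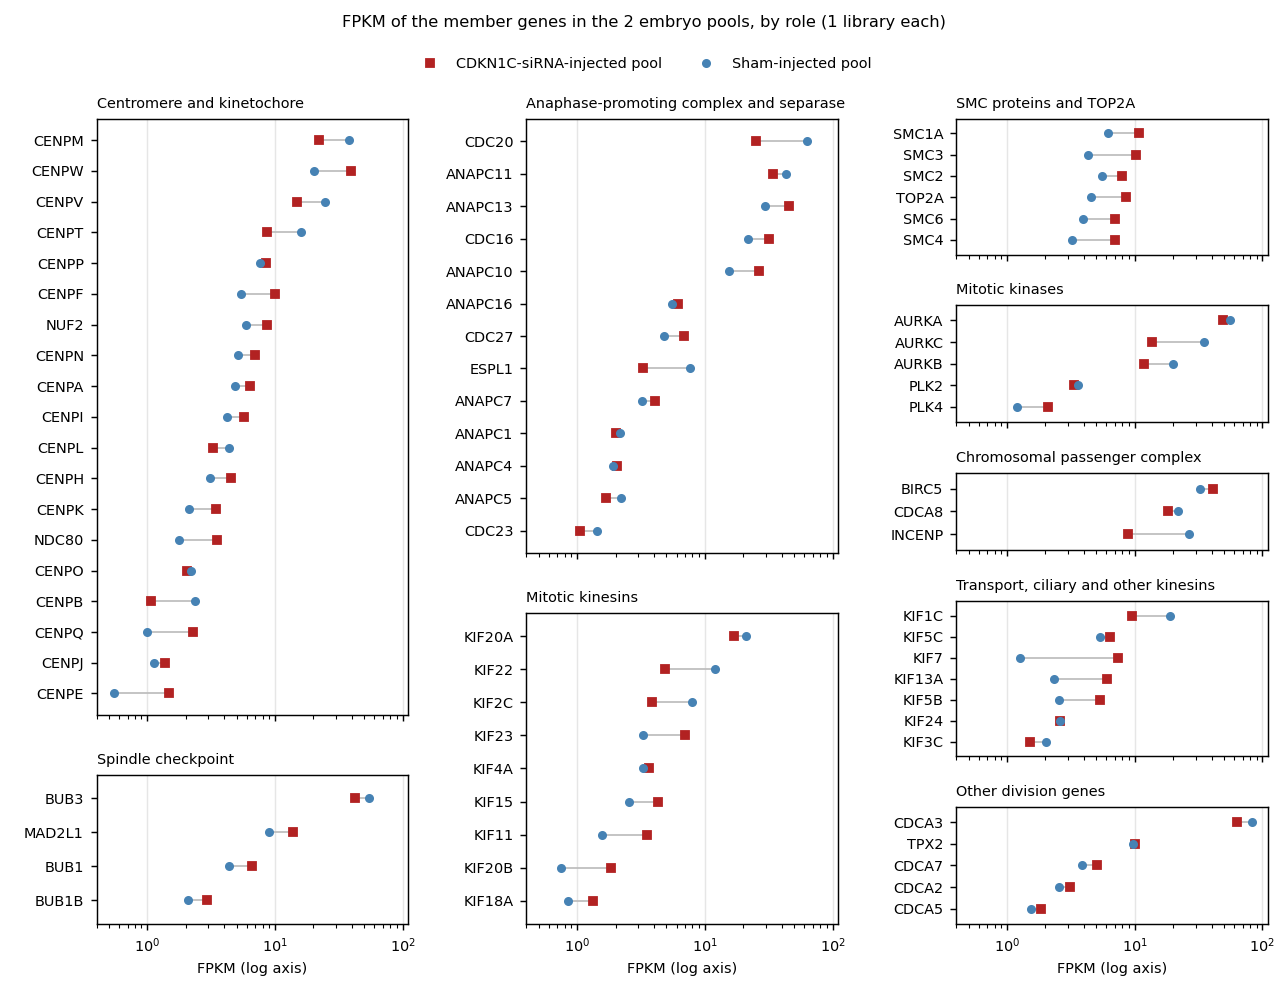
FPKM (horizontal, log axis) of the 71 members averaging 1 FPKM or more in the CDKN1C-siRNA-injected pool (red squares) and the Sham-injected pool (blue circles), 1 library each, grouped by role and ordered by mean level. The red squares lie to the right for every SMC gene and TOP2A, and well to the left for CDC20, ESPL1, INCENP, AURKC and KIF22.

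The SMC genes and TOP2A, genes of chromosome structure, differed in 1 direction. SMC proteins are the ring-forming ATPases of cohesin, which holds sister chromatids together, of condensin, which compacts chromosomes, and of the SMC5/6 complex of DNA repair. SMC3 of cohesin (bosTau7, chromosome 26, 31477956 to 31515607) was 10.2 FPKM in injected embryos and 4.30 FPKM in sham embryos, a log2 difference of 1.08 that 307 of 7984 genes reached. Its partner SMC1A was 10.8 FPKM in injected against 6.16 FPKM in sham embryos. SMC4 and SMC2, the ATPases of condensin, were 6.97 FPKM in injected against 3.24 FPKM in sham embryos and 7.89 against 5.56 FPKM. SMC6 was 7.06 FPKM in injected against 3.92 FPKM in sham embryos, and TOP2A, the topoisomerase that untangles sister chromatids, was 8.50 against 4.52 FPKM. All 6 were thus higher in the injected pool, 5 of them by at least 1.5-fold, beside 41.7% and 14.9% of all genes. Their log2 differences lay between 0.44 and 1.08, with a median of 0.75 beside -0.17 for all genes. The direction of these 6 was the same under both other scalings and after a fit on locus length, which gave a median of 0.61. SMC5, under a mean of 1 FPKM, was 0.810 FPKM in injected against 0.218 FPKM in sham embryos, and SMC1B, the meiotic cohesin gene, was near 0 in both pools at 0.0453 against 0.0360 FPKM.

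The partner subunits of these rings, taken from the other genes of the pathway, did not share 1 direction. RAD21, the subunit that closes the cohesin ring, was 5.44 FPKM in injected embryos and 4.58 FPKM in sham embryos. Of the non-SMC subunits of condensin I, NCAPG was 2.46 FPKM in injected against 1.63 FPKM in sham embryos, whereas NCAPH was 17.0 against 23.8 FPKM and NCAPD2 was 3.52 against 5.55 FPKM. In each pool NCAPH had the highest FPKM of the 5 condensin genes examined.

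Kinetochore and centromere genes were mostly higher in the injected pool, with a smaller set lower. Of 19 genes, 13 were higher and 6 lower, none by 2-fold after adding 1 FPKM, and the median log2 difference was 0.37. Over all genes 41.7% were higher, 4.92% were 2-fold higher and 15.7% 2-fold lower, and the median was -0.17. CENPW, a histone-fold protein of the inner kinetochore, was 39.1 FPKM in injected embryos and 20.3 FPKM in sham embryos. CENPF, a large kinetochore protein made late in the cycle, was 10.0 FPKM in injected against 5.45 FPKM in sham embryos, and CENPE, the kinesin-like motor that brings chromosomes to the spindle equator, was 1.48 against 0.546 FPKM. CENPQ, a subunit of the same inner network as CENPP and CENPO, was 2.27 FPKM in injected against 0.999 FPKM in sham embryos. CENPA, the histone H3 variant that marks the centromere, differed less, at 6.33 FPKM in injected against 4.84 FPKM in sham embryos.

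The other genes of this group lay on both sides. CENPK was 3.44 FPKM in injected embryos and 2.11 FPKM in sham embryos, CENPH was 4.49 against 3.07 FPKM, CENPI was 5.71 against 4.20 FPKM, and CENPN, which reads CENPA chromatin, was 7.02 against 5.11 FPKM. CENPP was 8.46 FPKM in injected against 7.65 FPKM in sham embryos, CENPO was 2.06 against 2.18 FPKM, and CENPJ, which is counted here by its symbol although it acts at the centriole, was 1.38 against 1.12 FPKM. Lower in the injected pool were CENPM at 22.1 FPKM in injected against 37.7 FPKM in sham embryos, CENPT, which links centromeric chromatin to the outer kinetochore, at 8.71 against 15.9 FPKM, CENPV at 14.8 against 24.4 FPKM, CENPB, which binds centromeric satellite DNA, at 1.07 against 2.34 FPKM, and CENPL at 3.28 against 4.36 FPKM. CENPM, CENPV and CENPW had the highest levels of the group in both pools. CENPT and CENPW, whose products bind each other, stood apart in opposite directions, with log2 differences of -0.80 and 0.91. CENPV lies in a locus that the tables give also to PIGL, which was 28.4 FPKM in injected against 53.1 FPKM in sham embryos, so that reads of the pair may not be told apart.

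In the outer kinetochore, subunits of the NDC80 complex and of the MIS12 complex differed in opposite directions. NDC80 and NUF2, the long arms of the complex that grips microtubules, were 3.54 FPKM in injected embryos against 1.78 FPKM in sham embryos and 8.63 against 5.92 FPKM. Their partner SPC24 was far more abundant and lower after injection, at 246 FPKM in injected against 506 FPKM in sham embryos, and SPC25 was 25.4 against 23.7 FPKM. In the MIS12 complex, which joins the NDC80 complex to the centromere, DSN1 was 5.69 FPKM in injected against 1.78 FPKM in sham embryos, NSL1 was 2.57 against 0.831 FPKM and MIS12 was 2.83 against 1.92 FPKM, while PMF1 was 2.67 against 12.1 FPKM. PMF1 therefore had the highest FPKM of these 4 in the sham pool and the second lowest in the injected pool. ZWILCH and ZW10, which recruit dynein and checkpoint proteins, were both higher, at 10.3 FPKM in injected against 4.47 FPKM in sham embryos and 2.95 against 2.81 FPKM.

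**Figure D2:**
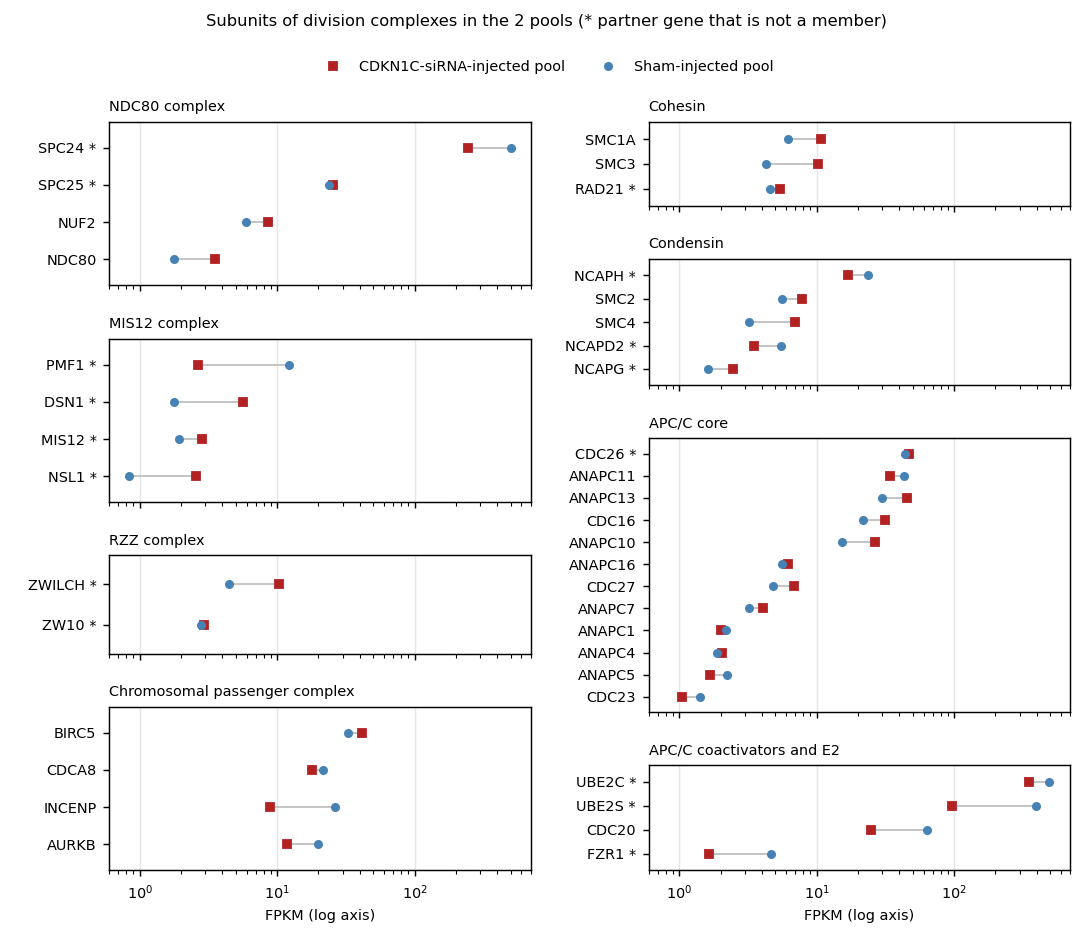
FPKM (horizontal, log axis) of the subunits of 8 division complexes in the CDKN1C-siRNA-injected pool (red squares) and the Sham-injected pool (blue circles), 1 library each. Asterisks mark partner genes outside the members. SPC24 and PMF1 lie far to the left in the injected pool while the other subunits of their complexes lie to the right. INCENP lies far to the left as well, with AURKB and CDCA8 also to the left and BIRC5 to the right. All 4 coactivator and E2 genes of the APC/C lie to the left.

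Of 4 spindle checkpoint genes, 3 were higher and 1 was lower in the injected pool, with a median log2 difference of 0.42 beside -0.17 for all genes. BUB1, a kinase of the kinetochore, was 6.57 FPKM in injected embryos and 4.36 FPKM in sham embryos, and BUB1B, which encodes the checkpoint inhibitor BUBR1, was 2.92 against 2.08 FPKM. MAD2L1, whose product captures CDC20, was 13.8 FPKM in injected against 9.04 FPKM in sham embryos. BUB3, the most abundant of them, was lower at 42.2 FPKM in injected against 54.8 FPKM in sham embryos, but slightly higher, with a log2 difference of 0.021, when the pools were scaled to the same total. No gene of these 4 reached 1.5-fold after adding 1 FPKM. MAD2L1 lies on another chromosome in the RefSeq table of ARS-UCD2.0 than in these bosTau7 tables, and which copy was counted was not settled.

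Of the mitotic kinases, the Aurora genes were lower in the injected pool, although AURKA turned under both other scalings. AURKA, which drives spindle pole maturation, was the most abundant kinase of the group, at 49.3 FPKM in injected embryos and 55.4 FPKM in sham embryos, and its log2 difference of -0.16 became 0.0015 with the median of all genes set to 0 and 0.23 when the pools were scaled to the same total. AURKB was 11.8 FPKM in injected against 19.9 FPKM in sham embryos. AURKC, its close paralog with a known role in germ cells, was 13.7 FPKM in injected against 35.0 FPKM in sham embryos, a log2 difference of -1.29 that 665 of 7984 genes matched or passed on the lower side. Reads of AURKB and AURKC may be shared between these related sequences. PLK4, the kinase that starts centriole duplication, was higher at 2.10 FPKM in injected against 1.20 FPKM in sham embryos, and PLK2 was 3.33 against 3.59 FPKM. Of the members under a mean of 1 FPKM, PLK3 was 1.13 FPKM in injected against 0.555 FPKM in sham embryos, and PLK1, the main mitotic Polo-like kinase, was listed at only 0.694 against 0.891 FPKM. The locus of PLK1 is also given to LOC508486, a symbol without further annotation here, at 14.9 FPKM in injected against 16.9 FPKM in sham embryos.

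The chromosomal passenger complex, which corrects faulty attachments through its kinase AURKB, held the lowest difference of all members. INCENP, its scaffold (bosTau7, chromosome 29, 42095056 to 42127619), was 8.81 FPKM in injected embryos and 26.5 FPKM in sham embryos. This 3.01-fold lower FPKM corresponded to a log2 difference of -1.49, which 392 of 7984 genes matched or passed. It was the 1 member that stayed 2-fold lower when the pools were scaled to the same total. CDCA8, the borealin gene, was 18.1 FPKM in injected against 21.7 FPKM in sham embryos, and BIRC5, the survivin gene, was 41.3 against 32.7 FPKM. With AURKB counted in, 3 of the 4 subunits were lower in the injected pool and 1 was higher, while with the same total in each pool CDCA8 turned to a log2 difference of 0.13. BIRC5 had the highest FPKM of the 4 in each pool, while the lowest was INCENP in the injected pool and AURKB in the sham pool.

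Core subunits of the APC/C lay on both sides, while the genes that activate or serve it were lower in the injected pool. Of 11 core subunits among the members, 7 were higher and 4 lower, none by 2-fold, with log2 differences from -0.34 to 0.75. Their median of 0.13 stood beside -0.17 for all genes, of which 41.7% were higher. With the same total in each pool, ANAPC1 and ANAPC11 turned higher, while ANAPC5 and CDC23 stayed lower. The catalytic subunit gene ANAPC11, which carries the RING domain, was 34.2 FPKM in injected embryos and 43.6 FPKM in sham embryos, and its lower value turned to a log2 difference of 0.046 with the same total in each pool. ANAPC10, which takes part in substrate binding, was 26.6 FPKM in injected against 15.4 FPKM in sham embryos, in a locus that the tables give also to ABCE1 at 2.85 against 1.67 FPKM. ANAPC13, a small stabilizing subunit, was 45.2 FPKM in injected against 29.8 FPKM in sham embryos.

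The scaffold and repeat-containing subunits, with ANAPC16, differed by less than 1.5-fold after adding 1 FPKM. CDC16 was 31.6 FPKM in injected embryos and 21.8 FPKM in sham embryos, CDC27 was 6.80 against 4.80 FPKM, ANAPC7 was 4.08 against 3.24 FPKM and CDC23 was 1.06 against 1.42 FPKM. ANAPC1 was 2.01 FPKM in injected against 2.18 FPKM in sham embryos, ANAPC4 was 2.06 against 1.89 FPKM, ANAPC5 was 1.67 against 2.21 FPKM and ANAPC16 was 6.17 against 5.56 FPKM. The 11 core subunits among the members thus spanned from 1.06 to 45.2 FPKM in the injected pool. Their range in the sham pool was 1.42 to 43.6 FPKM. CDC26, a core subunit outside the rule, was higher than these in each pool, at 47.0 FPKM in injected against 44.2 FPKM in sham embryos. The large scaffold genes ANAPC1, ANAPC4 and ANAPC5 were at the low end in each, with CDC23.

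CDC20, the coactivator that brings substrates to the APC/C in mitosis (bosTau7, chromosome 3, 108604999 to 108613830), was 25.0 FPKM in injected embryos and 63.3 FPKM in sham embryos, 2.53-fold lower. The tables give its locus also to ELOVL1, which was 7.24 FPKM in injected against 21.2 FPKM in sham embryos. FZR1, the coactivator of late mitosis and G1, was 1.64 FPKM in injected against 4.68 FPKM in sham embryos, UBE2S, which extends ubiquitin chains, was 97.1 against 393 FPKM, and UBE2C, which starts them, was 352 against 493 FPKM. All 4 were lower, as were 4655 of 7984 genes, with log2 differences from -2.01 to -0.49. These directions did not turn under the other scalings or the fit on locus length, though UBE2C came to -0.090 with the same total. Locus lengths were 3.89 kb for UBE2S, 4.84 kb for UBE2C, 8.83 kb for CDC20 and 17.4 kb for FZR1. All genes in loci up to 10.6 kb had a median of -0.49. ESPL1, the separase gene, was lower as well, at 3.25 FPKM in injected against 7.66 FPKM in sham embryos. PTTG1, the symbol of securin, was listed at 0 in injected embryos and at 0.501 FPKM in sham embryos, at a locus shared with PCGF2 and on another chromosome than in the RefSeq table of ARS-UCD2.0, so its value may not be that of the securin gene.

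Mitotic kinesins divided into genes higher and genes lower after injection. KIF11, the motor that pushes spindle poles apart, was 3.52 FPKM in injected embryos and 1.58 FPKM in sham embryos. KIF23, the motor of the central spindle in cytokinesis, was 7.03 FPKM in injected against 3.28 FPKM in sham embryos, KIF20B, which also acts in cytokinesis, was 1.84 against 0.748 FPKM, KIF15, which can back up KIF11, was 4.27 against 2.55 FPKM, and KIF18A, which dampens chromosome oscillation, was 1.33 against 0.847 FPKM. KIF4A, a motor on chromosome arms, was 3.67 FPKM in injected against 3.30 FPKM in sham embryos. KIF22, another motor on chromosome arms, was lower at 4.91 FPKM in injected against 12.0 FPKM in sham embryos, as was KIF2C, which takes apart microtubules at the kinetochore, at 3.83 against 7.98 FPKM. KIF20A, the most abundant motor of the group, was 17.0 FPKM in injected against 21.0 FPKM in sham embryos. Its direction turned when the pools were scaled to the same total, to a log2 difference of 0.086. KIF20A lies 496 bases from CDC23 on chromosome 7. Of 9 mitotic kinesins, 6 were higher and 3 lower, 1 of them by 2-fold, beside 41.7% of all genes higher and 15.7% 2-fold lower. The median of 0.34 became 0.060 after the fit on locus length, beside -0.17 for all genes in both cases.

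Of the kinesins of transport, cilia and other roles, KIF7 had the largest difference of all members. KIF7, a ciliary regulator of Hedgehog signalling and not a mitotic motor (bosTau7, chromosome 21, 20902079 to 20919879), was 7.36 FPKM in injected embryos and 1.26 FPKM in sham embryos. Its 5.85-fold higher FPKM corresponded to a log2 difference of 1.89, which 42 of 7984 genes reached. It is also on the list of differing genes that the study drew from these same libraries, so its direction there is not independent evidence. KIF13A, a motor of endosomal transport, was 6.02 FPKM in injected against 2.34 FPKM in sham embryos. KIF5B, the widely expressed conventional kinesin, was 5.35 FPKM in injected against 2.57 FPKM in sham embryos, and its relative KIF5C was 6.37 against 5.38 FPKM. KIF1C was lower at 9.60 FPKM in injected against 18.7 FPKM in sham embryos, KIF3C was 1.52 against 2.03 FPKM, and KIF24 was 2.62 against 2.60 FPKM. Of the 3 members 2-fold higher after injection, KIF7 and KIF13A belong here, and 1 was left, SMC3, without this group.

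Other genes of the division programme differed by less than 1.5-fold after adding 1 FPKM. CDCA3, the most abundant member of all, was 63.4 FPKM in injected embryos and 82.7 FPKM in sham embryos, and its log2 difference of -0.38 became 0.014 with the same total FPKM. TPX2, which activates AURKA on spindle microtubules, was 10.1 FPKM in injected against 9.74 FPKM in sham embryos. CDCA7 was 5.11 FPKM in injected against 3.86 FPKM in sham embryos, CDCA2 was 3.11 against 2.54 FPKM, and CDCA5, the sororin gene that protects cohesin, was 1.86 against 1.53 FPKM. MKI67, whose protein is a common marker of cycling cells, was under the mean of 1 FPKM, at 0.936 FPKM in injected against 0.457 FPKM in sham embryos.

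**Figure D3:**
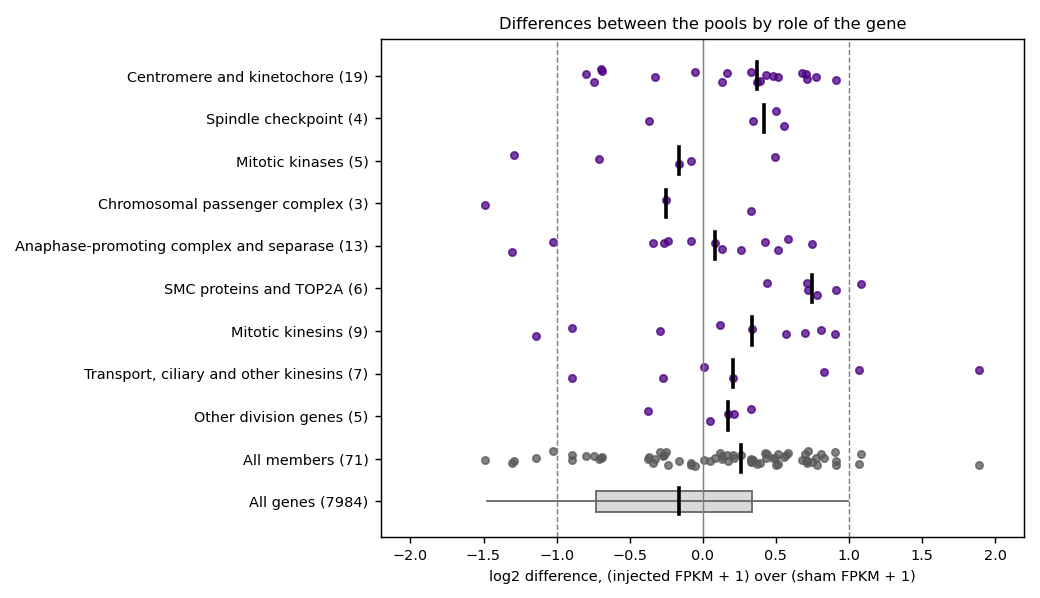
Log2 difference between the CDKN1C-siRNA-injected and the Sham-injected pool (horizontal, after adding 1 FPKM) for the 71 members, by role, with the number of genes in brackets and black bars at the medians. The bottom box spans the interquartile range of the 7984 genes averaging 1 FPKM or more, its line runs between percentiles 5 and 95, and dashed lines mark 2-fold. The SMC group lies wholly right of 0, at 0.44 to 1.08, while the 3 lowest members are INCENP at -1.49, CDC20 at -1.31 and AURKC at -1.29.

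The remaining 22 members had a mean below 1 FPKM, and 16 of them were kinesins, 13 of transport, cilia or other roles and 3 mitotic. No member of the 22 exceeded 1.13 FPKM in the injected pool or 0.891 FPKM in the sham pool. Of the kinesins KIF9 reached 1 FPKM in a pool, at 1.07 FPKM in injected embryos and 0.671 FPKM in sham embryos, in a locus given also to LOC100852324. The genes KIF5A, KIF12, KIF19, KIF25 and KIF26B were listed at 0 in both pools.

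The 53 other genes of spindle, kinetochore, cohesin, condensin and anaphase averaging 1 FPKM or more are not taken by the rule. Of these 37 were higher in the injected pool and 16 lower, so that 69.8% were higher beside 41.7% of all genes, and the median log2 difference was 0.22. At 2-fold 3 were higher, 5.66% beside 4.92% of all genes, and 7 were lower, 13.2% beside 15.7% of all genes and 7.04% of the members. The 3 highest were DSN1, ZWILCH and HAUS5, a subunit of the augmin complex that branches spindle microtubules, at 7.64 FPKM in injected embryos and 3.27 FPKM in sham embryos. The 3 lowest were UBE2S, PMF1 and MAD2L2, a partner of translesion polymerases that also binds the APC/C, at 13.5 FPKM in injected against 51.2 FPKM in sham embryos.

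The members on either side differed in locus length, a feature that the rule did not use. The 18 members at least 1.5-fold higher had a median locus length of 39.2 kb, from 6.36 to 230.1 kb. The 12 at least 1.5-fold lower had a median of 14.5 kb, from 4.08 to 51.9 kb. The longest of these, CENPV, lies in the locus given also to PIGL, so some lengths are not those of the member gene alone. These sets, of unequal size, lay on 14 and 7 chromosomes. Across the 71 members the Spearman correlation of locus length with the log2 difference was 0.37, and across the 62 with a locus of their own it was 0.43. Across all 7984 genes, which share the same 2 libraries, it was 0.29. Genes are not independent replicates. In loci over 33.6 kb, 28 of 34 members were higher in the injected pool, with a median log2 difference of 0.40 beside 0.11 for all genes of that length. In loci up to 10.6 kb, 5 of 13 members were higher, with a median of -0.29 beside -0.49. Members had longer loci than genes at large, with a median of 33.2 kb beside 19.0 kb. After a loess fit on locus length that kept the median of all genes at -0.17 by construction, the members' median was 0.14, and the part of gene length in these differences was not otherwise tested.

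**Figure D4:**
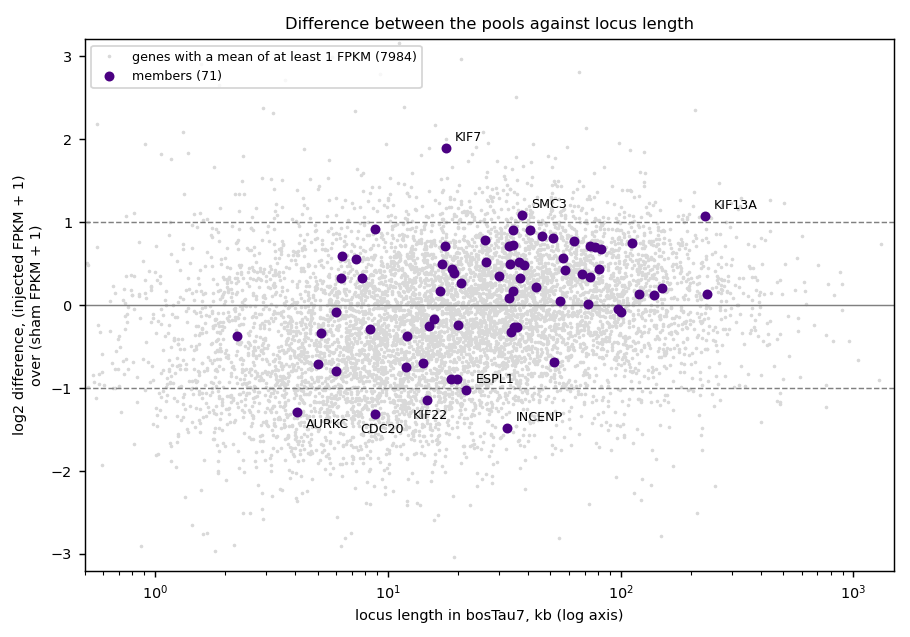
Log2 difference between the CDKN1C-siRNA-injected and the Sham-injected pool (vertical, after adding 1 FPKM) against locus length in kb (horizontal, log axis) for the 71 members (purple) and the 7984 genes averaging 1 FPKM or more (grey), of which 62 lie outside the axes. Dashed lines mark 2-fold. The members lie mostly above 0 among long loci and on both sides among short ones, with KIF7 at 1.89 the highest and INCENP at -1.49 the lowest.

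Level was a second feature. Of 31 members with a mean between 1 and 5 FPKM, 2 were 2-fold higher and 0 were 2-fold lower, beside 4.87% and 10.6% of all genes of that level, with a median log2 difference of 0.33 beside -0.021. Of 28 members between 5 and 20 FPKM, 1 was 2-fold higher and 3 were 2-fold lower, beside 5.88% and 18.0% of all genes, with a median of 0.27 beside -0.20. Of the 12 members at 20 FPKM or more, 0 were 2-fold higher and 2 were 2-fold lower, beside 3.92% and 21.3% of all genes, and their median of -0.25 stood beside -0.38. Summed FPKM of all 93 members was 786 in the injected pool and 842 in the sham pool, a ratio of 0.934, beside 0.759 for all loci. The members made up 0.0748% of all FPKM in the injected pool and 0.0608% in the sham pool.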

How the data were processed

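RNA-Seq values of 1 CDKN1C-siRNA-injected and 1 Sham-injected embryo pool were used. Reads were mapped to bosTau7 with TopHat, and the authors deposited FPKM estimated with Cufflinks 2.0.2, upper-quartile normalized and corrected for sequence bias. The gene annotation is not given in the sources used here. Such values carry no read counts, so depth and its precision are unknown. Each table has 22220 loci, of which 615 without a symbol were left out, and loci of 1 symbol were summed. Of the members, 13 lie in a locus given also to another symbol, which then covers both genes. All 93 symbols are in the RefSeq table of ARS-UCD2.0, 2 of them on another chromosome than in bosTau7.

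Differences were log2 of injected over sham FPKM after adding 1, for genes averaging 1 FPKM or more, and folds of 2 and 1.5 were counted. The counting step was tested on simulated data. The members, role groups and lists were chosen with earlier results of these data known. By rule, any member at that level could be named, and the 3 highest and 3 lowest of the other pathway genes. Members under it were named where a pool reached 1 FPKM. MKI67, PLK1, PTTG1, SMC5, SMC1B and the genes listed at 0 were named after their values were seen. So were the partner genes RAD21, NCAPG, NCAPH, NCAPD2, SPC24, SPC25, MIS12, NSL1, ZW10, CDC26, FZR1 and UBE2C. Alternatives were other pseudocounts, filters, scalings, folds, the highest locus in place of the sum, and subtraction of a loess curve of locus length (span 0.3). Software was Python 3.11.15, matplotlib 3.10.9, statsmodels 0.14.6, NumPy 2.4.6 and pandas 2.3.3.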

Additional observations from a re-analysis of the deposited data

How the results depend on the processing

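The members at least 2-fold higher and lower numbered 3 and 5, beside 393 and 1255 of 7984 genes. With 0.1 FPKM added in place of 1 the counts were 10 and 7, beside 692 and 1637 among all genes. With 5 FPKM added they were 0 and 3, beside 119 and 598. A fold of 1.5 gave 18 and 12, beside 1186 and 2436, and a fold of 4 gave 0 and 0, beside 33 and 84. A mean of at least 5 FPKM left 1 higher and 5 lower, beside 227 and 895 of 4576 genes. Setting the median of all genes to 0 gave 6 and 3, beside 616 and 882. The same total FPKM in each pool gave 14 and 1, beside 1044 and 625 of 8262 genes. Without the transport, ciliary and other kinesins, an alternative chosen after seeing the data, 1 was higher. The members' median log2 difference of 0.26 was 0.13 with 5 FPKM added, 0.16 without a filter on low values, 0.43 with the median of all genes at 0, 0.58 with the same total FPKM and 0.14 after the fit on locus length. It was above 0 under each alternative run. Without the 9 of these 71 members in shared loci, also chosen after seeing the data, it was 0.33 over the 62 left. The median of the chromosomal passenger group, -0.25 as deposited, was 0.13 with the same total FPKM, and that of the mitotic kinases, -0.16, was 0.23, and 0.0015 with the median of all genes at 0. The fit on locus length turned the medians of the APC/C and separase group, 0.081, to -0.083, of the transport, ciliary and other kinesins, 0.21, to -0.053, and of the other division genes, 0.17, to -0.011. A mean of at least 5 FPKM, which leaves 40 of the 71 members, turned those of the mitotic kinesins, 0.34, to -0.59, of the transport, ciliary and other kinesins to -0.34 and of the other division genes to -0.16, and gave -0.71 for the mitotic kinases. Of 89 single genes named or drawn, 4 changed sign with the median at 0, 9 with the same total and 13 after the fit on locus length, and no gene past 2-fold as deposited was among them. Single libraries give no spread between embryo pools, which limits each of these values. No paired analysis was possible because each group holds 1 library.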
